A study of Homo sapiens with 6 samples.

Results

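The genes examined were 10 transcription factor genes that lung mesenchyme uses: TBX2, TBX4, TBX5, FOXF1, MEOX2, TCF21, PRRX1, TWIST1, TWIST2 and SNAI2. They were chosen by name out of 20037 protein-coding genes placed on GRCh38. No measured value entered the rule, but earlier results of these data were known when the genes were chosen. For each gene, every peak that overlapped the gene body or the 50 kb on each side was taken, which gave 95 of the 65597 nuclear peaks in the 6 deposited lists. Of these, 23 were CTCF peaks and 72 were SMC1 peaks.

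The cells were IMR90, human lung fibroblasts that are widely used to study senescence, and all 6 sample titles share the prefix I79. In CUT&Tag an antibody tethers a transposase to chromatin that its target occupies, and the fragments cut there are sequenced. One antibody was raised against CTCF, a zinc finger protein that binds DNA and stops cohesin, and the other against SMC1, a core subunit of the cohesin ring. Both were applied to control cells, to cells given inflachromene (ICM), a compound that binds the chromatin proteins HMGB1 and HMGB2, and to cells made senescent by serial passaging. The labels name no genetic change in any group. The titles carry a p number, which for CTCF was 21 in the control, 16 after ICM and 34 in senescent cells, and for SMC1 was 16, 16 and 34. Treatment lasted 6 days according to the label of the CTCF library, and the label of the SMC1 library gives no duration. Each group had 1 library, so no difference below has a replicate check and none was tested, and for CTCF the p number of the control and of the treated cells differed and cannot be told apart from the treatment.

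The lists held 4673, 6728 and 8577 CTCF peaks (control, ICM and senescent) and 14883, 17809 and 12927 SMC1 peaks in the same order. The sequencing depth behind them is unknown. The authors calibrated reads to carried-over E. coli DNA, but the factors are not in the lists, whose total signals are all whole numbers, so a common scale was not assumed. Each peak is therefore placed by its percentile, its rank from the lowest up as a percent of its own list, with the mean rank given to tied peaks, for total signal (coverage summed over the peak) and for highest signal. A peak counted as a promoter peak when its summit, the middle of the stretch of highest signal, lay within 1 kb of the outermost 5′ end of the gene. A gene without a listed peak may still be bound below the cutoff of the peak caller, and the lists measure no expression, so the fibroblast identity of the cells could not be checked from them.

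The proteins these genes encode bind DNA through different folds (T-box, forkhead, homeobox, basic helix-loop-helix and zinc finger) and are used in the mesenchyme of the lung and of other organs. TBX4 and TBX5 act in early lung budding and lung mesenchyme, FOXF1 answers hedgehog signals from the epithelium, and TCF21 marks lipid-storing and other interstitial fibroblasts. TWIST1, TWIST2, PRRX1 and SNAI2 are linked to the mesenchymal state itself, and SNAI2 represses E-cadherin. Cohesin extrudes chromatin loops, CTCF halts it at loop anchors, and cohesin is also found at active promoters and enhancers.

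Promoter sequences from the RefSeq promoter table on GRCh38.p14 cover 250 bp before to 50 bp after an annotated transcript start, and 6 of the 10 genes had an entry. TBX2, FOXF1, TWIST1 and SNAI2 had none. Shown are the promoter that SMC1 peaks covered in all 3 lists (TCF21, chr6:133888863-133889162, plus strand), one covered in control cells alone (TWIST2, chr2:238847835-238848134, plus strand), one with peaks nearby but none over it (PRRX1, chr1:170663881-170664180, plus strand) and one far from any peak (MEOX2, chr7:15686634-15686933, minus strand). Capitals mark AGGNGGC, a short piece of the CTCF consensus, searched on both strands.
TCF21: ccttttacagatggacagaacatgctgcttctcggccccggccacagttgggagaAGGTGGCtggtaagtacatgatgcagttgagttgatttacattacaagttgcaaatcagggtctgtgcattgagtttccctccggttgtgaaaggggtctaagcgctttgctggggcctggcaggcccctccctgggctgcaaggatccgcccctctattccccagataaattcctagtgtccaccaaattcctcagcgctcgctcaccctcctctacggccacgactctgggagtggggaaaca
TWIST2: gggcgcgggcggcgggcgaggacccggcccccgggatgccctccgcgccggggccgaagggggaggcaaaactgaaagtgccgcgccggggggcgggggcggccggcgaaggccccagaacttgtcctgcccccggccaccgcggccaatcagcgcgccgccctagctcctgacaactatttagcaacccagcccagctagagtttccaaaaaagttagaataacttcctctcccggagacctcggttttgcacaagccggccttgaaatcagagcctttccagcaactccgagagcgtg
PRRX1: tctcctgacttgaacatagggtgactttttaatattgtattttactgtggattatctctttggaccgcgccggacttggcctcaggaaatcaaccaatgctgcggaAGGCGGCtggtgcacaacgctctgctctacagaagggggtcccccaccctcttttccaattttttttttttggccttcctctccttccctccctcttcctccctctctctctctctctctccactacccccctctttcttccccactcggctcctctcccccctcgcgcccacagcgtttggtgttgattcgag
MEOX2: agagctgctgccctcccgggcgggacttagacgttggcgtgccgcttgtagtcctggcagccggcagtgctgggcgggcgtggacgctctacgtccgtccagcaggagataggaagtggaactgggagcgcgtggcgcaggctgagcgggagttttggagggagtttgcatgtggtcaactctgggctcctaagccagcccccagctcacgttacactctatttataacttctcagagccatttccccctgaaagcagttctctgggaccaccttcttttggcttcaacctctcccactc
The letters AGGNGGC stood in 12593 of 35116 promoters of this length (35.9%). They occurred once in the TCF21 and in the PRRX1 window, 3 times in the TBX4 window, and in none of the TWIST2, MEOX2 and TBX5 windows. No CTCF peak of any list lay over the promoter windows of these 6 genes, those with the letters included. SNAI2 and FOXF1, the genes with a CTCF promoter peak, were among those without an entry, so the absence reflects which genes had one. CpG dinucleotides numbered 29 in the TWIST2 window, 16 in MEOX2, 11 in PRRX1 and 9 in TCF21, against a median of 14 over all promoters.

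CTCF peaks lay near 4 of the 10 genes in control cells (TBX2, TBX4, FOXF1 and SNAI2), and near 5 after ICM and in senescent cells, where TCF21 joined them. Over all protein-coding genes the share with a CTCF peak in the same window was 41.7% in control, 51.7% after ICM and 55.7% in senescent cells, so the genes were close to the background in each list. The first 4 genes had a CTCF peak in every list, as did 39.3% of all genes. TBX5, MEOX2, PRRX1, TWIST1 and TWIST2 had no CTCF peak in any list.

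SMC1 peaks lay near 9 of the 10 genes in control cells, 8 after ICM and 6 in senescent cells, against 68.3%, 69.0% and 63.1% of all protein-coding genes. The share thus stood above the background in control cells, while with 10 genes the differences after ICM (above) and in senescent cells (below) were small. TBX4 entered the SMC1 and the CTCF counts only through peaks that also lay in the TBX2 window. MEOX2 had none in any list, TWIST1 had a peak in control cells alone, and TBX5 and PRRX1 had peaks in control and ICM-treated cells but not in senescent cells. TBX2, TBX4, FOXF1, TCF21, TWIST2 and SNAI2 had an SMC1 peak in all 3 lists, as did 56.9% of all genes. The difference between 9 and 6 genes lay in TBX5, PRRX1 and TWIST1, which had a single peak in each list that named them.

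Promoter peaks set the antibodies further apart. SMC1 promoter peaks were listed for 6 genes in control cells (TBX2, FOXF1, TCF21, TWIST1, TWIST2 and SNAI2), 5 after ICM (the same genes without TWIST1) and 4 in senescent cells (without TWIST2 as well). The corresponding shares over all genes were 31.6%, 27.6% and 22.3%, so more of the 10 genes had one than the background in each list, while the order of the 3 conditions was that of the background. With the 3 lists limited to the same length by highest signal the counts were 6, 3 and 4. The 4 genes listed in all 3 conditions compare with 17.6% of all genes, and the 6 genes listed in any condition with 36.3%. CTCF promoter peaks were listed for SNAI2 in all 3 lists and for FOXF1 after ICM, that is for 1, 2 and 1 genes. Over all genes these shares were 8.76%, 12.6% and 9.55%, with 6.84% in all 3 lists and 14.3% in any list.

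**Figure D1:**
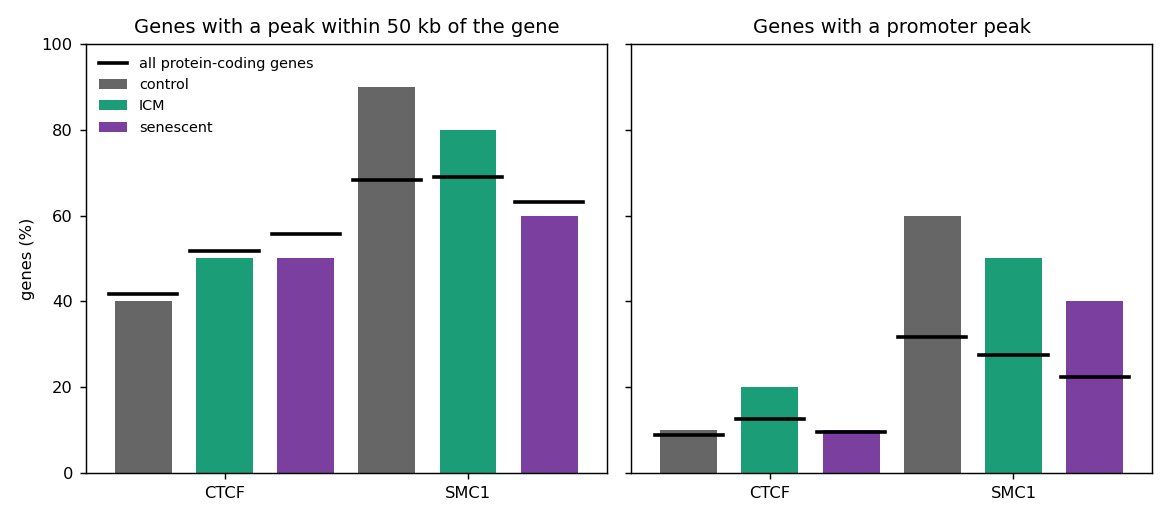
Percent of the 10 genes (bars) with a peak in the gene body or within 50 kb of it (left) and with a promoter peak (right), by antibody and condition, with 1 library each. Black lines give the same percent over all protein-coding genes; the SMC1 promoter bars stand above the lines in all 3 conditions, and the CTCF bars of the left panel lie slightly below them.

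Most listed peaks were not promoter peaks of these genes. The windows reached 50 kb beyond each gene and the promoter rule 1 kb from its 5′ end. No share over the whole lists is given, so the counts are a description without a background. Among the rest, CTCF and SMC1 peaks past TBX2 had LINC02875 beginning within 1 kb of the summit. An SMC1 peak upstream of FOXF1 after ICM had FENDRR beginning within 1 kb. Of the 23 CTCF peaks 5 overlapped a gene body and 4 were promoter peaks, and 18 were neither. Of the 72 SMC1 peaks 23 overlapped a gene body and 15 were promoter peaks, and 48 were neither. FOXF1 (26 peaks), TBX2 (29) and SNAI2 (16) held most of them, TBX4 (16) shared all of its peaks with TBX2, and PRRX1, TBX5 and TWIST1 had 2, 2 and 1.

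**Figure D2:**
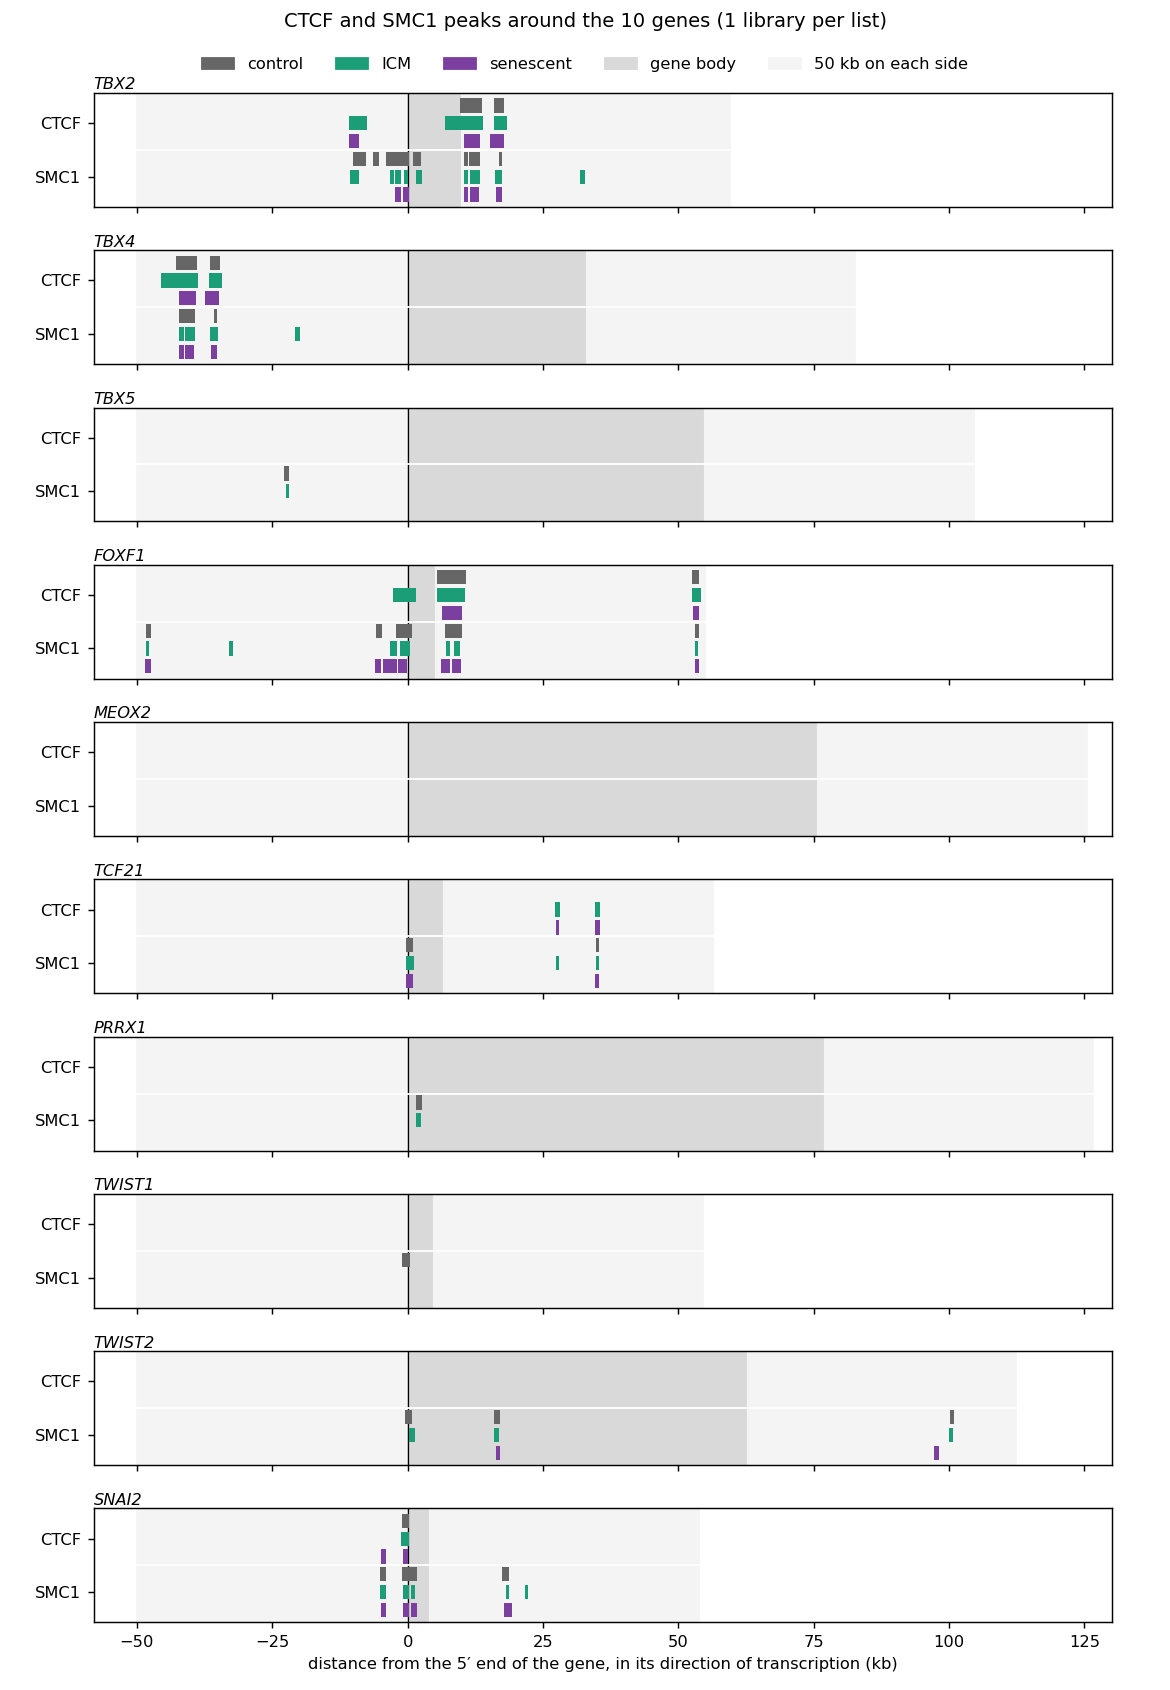
Peaks around each gene against distance from its 5′ end in kb, in the direction of transcription, with 3 CTCF rows above 3 SMC1 rows and colours for control, ICM and senescent (1 library each). Dark grey is the gene body, light grey the 50 kb on each side, and peaks under 0.6 kb are drawn at that width; peaks crowd at TBX2, FOXF1 and SNAI2, and MEOX2 has none.

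TBX2, a T-box repressor that keeps embryonic lung mesenchyme dividing (chr17:61399843-61409466, plus strand), had the widest SMC1 promoter peak of the 10 genes. In control cells it spanned 4203 bp (chr17:61395885-61400087), at the 98.0th percentile by total and the 86.5th by highest signal. After ICM the promoter peak spanned 816 bp (chr17:61399173-61399988), at percentiles 59.9 and 53.5. In senescent cells it spanned 1049 bp (chr17:61399003-61400051), at percentiles 25.9 and 20.4. The promoter was thus listed in all 3 conditions, with a width and both percentiles highest in control cells and both percentiles lowest in senescent cells. The antisense noncoding gene TBX2-AS1 also begins within 1 kb of all 3 summits, so the signal cannot be given to either gene.

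The wide control peak corresponded to several narrower peaks in the other lists. ICM-treated cells had SMC1 peaks of 620 and 1235 bp with summits 2828 and 2301 bp upstream of the 5′ end. Senescent cells had a 1106 bp peak 1784 bp upstream, whose total signal of 2796 equalled the lowest in its whole list. Inside the gene, control cells had a peak at chr17:61400820-61402321 (percentile 28.4 by total signal) and ICM-treated cells one at chr17:61401429-61402417 (percentile 16.2), while senescent cells had none.

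The strongest peaks near TBX2 were CTCF peaks just past its 3′ end, at the start of the noncoding gene LINC02875. In control cells this peak lay at chr17:61409576-61413536, at the 99.4th percentile by total and the 92.8th by highest signal. After ICM it lay at chr17:61406792-61413702, spanned 6911 bp and reached percentiles 99.8 and 95.6, which placed it 15th of 6728 by total signal. In senescent cells it lay at chr17:61410189-61413285, at percentiles 98.7 and 74.7. The 3 peaks overlapped, with summits 12.5 to 12.7 kb from the TBX2 5′ end, and only the ICM peak reached into the gene body.

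A CTCF peak 17.2 kb from the TBX2 5′ end was also present in all 3 lists, with summits within a span of 8 bp, at percentiles 55.6, 60.7 and 84.8 by total signal. Each of its peaks met an SMC1 summit. Upstream, a CTCF peak 9.7 kb from the 5′ end was listed after ICM (percentile 20.4) and in senescent cells (percentile 44.9), and not in control cells. The SMC1 peaks of highest total signal in the window were the promoter peak in control cells, chr17:61415903-61417312 after ICM (percentile 94.5) and chr17:61411298-61412933 in senescent cells (percentile 88.5). The last of these lies at LINC02875 and the other at the CTCF peak 17.2 kb away, so the highest SMC1 signal stood at the promoter in control cells alone.

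TBX4, which acts in lung branching and marks lung fibroblasts (chr17:61452422-61485110, plus strand), begins 43.0 kb past the end of TBX2. Its body and promoter held no peak in any list. All 16 peaks in its window lay upstream, 15 of them between the genes and 1 (the wide CTCF peak after ICM) reaching into TBX2, and all of them also counted for TBX2, so the pair is not independent. They comprised the strong CTCF peak at LINC02875, 39.8 to 40.1 kb upstream of the TBX4 5′ end, the CTCF peak about 35.4 kb upstream, and 10 SMC1 peaks. The highest SMC1 peak of the window in control cells was at chr17:61411193-61413199, at percentile 96.1 by total signal. The nearest to TBX4 was an SMC1 peak at chr17:61431706-61432560, 20.3 kb upstream, listed after ICM alone (percentile 64.5).

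TBX5, which acts upstream of WNT2 in lung specification and is mutated in Holt-Oram syndrome (chr12:114353911-114408442, minus strand), had 2 peaks, both SMC1. In control cells a 908 bp peak lay at chr12:114430333-114431240, at percentiles 36.7 by total and 66.4 by highest signal. After ICM a 416 bp peak lay at chr12:114430363-114430778, at percentiles 12.1 and 41.5. Both summits were 22.1 to 22.2 kb upstream of the 5′ end and formed 1 locus. In senescent cells the nearest SMC1 peak was 186 kb from the gene, and the nearest CTCF peak was 259 kb away in control and ICM-treated cells and 275 kb in senescent cells.

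FOXF1, the forkhead factor of lung mesenchyme and vasculature whose loss causes alveolar capillary dysplasia (chr16:86510527-86515422, plus strand), also had a wide SMC1 promoter peak in control cells. In control cells it covered 2874 bp (chr16:86508462-86511335), at percentiles 96.8 by total and 69.1 by highest signal. After ICM it covered 1847 bp (chr16:86509091-86510937), at percentiles 92.0 and 35.0. In senescent cells it covered 1593 bp (chr16:86508767-86510359), at percentiles 72.7 and 11.8. Width and both percentiles of the promoter peak were highest in control cells and lowest in senescent cells, and the summits lay 267 to 792 bp upstream. The divergent noncoding gene FENDRR begins within 1 kb of the ICM summit. At its upstream edge the control peak also overlapped another SMC1 peak in each other list, mostly outside the control peak and beyond the 1 kb limit. This other peak spanned 1251 bp after ICM (percentiles 19.3 by total and 1.39 by highest signal) and 2681 bp in senescent cells (88.3 and 1.67). The last was wider and higher by total signal than the senescent promoter peak, so the order given holds for the promoter peak alone.

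FOXF1 had a CTCF promoter peak in 1 list. After ICM a peak of 4310 bp lay over the 5′ end (chr16:86507841-86512150), wide but flat, at the 33.0th percentile by total and the 0.216th by highest signal, near the lowest height in that list. No CTCF peak of the control or senescent list overlapped it. It overlapped an SMC1 peak of the same condition without sharing its summit.

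The highest CTCF signal around FOXF1 lay 3′ of the gene in every list. The control peak was chr16:86516031-86521272 (percentile 91.5 by total signal), the ICM peak chr16:86515913-86521063 (96.7) and the senescent peak chr16:86516821-86520492 (94.9). The peaks overlapped, but the control summit lay 7.31 kb and the others 9.52 and 9.53 kb from the 5′ end. SMC1 peaks in all 3 lists had their summit at 7.31 kb, with the control peak at chr16:86517437-86520492 (97.0) and the senescent peak at chr16:86516692-86518288 (90.1), the highest totals of their lists in this window. A further CTCF peak 53.4 to 53.5 kb from the 5′ end and an SMC1 peak at the same place were present in all 3 conditions, as was an SMC1 peak about 48.0 kb upstream.

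MEOX2, a homeobox gene of muscle, vessel and lung mesenchyme (chr7:15611212-15686683, minus strand), was the 1 gene of the 10 with no peak in any of the 6 lists. Over all protein-coding genes 20.7% had none. Its nearest CTCF peak was 2923 kb downstream in all 3 conditions. The nearest SMC1 peak was 958 kb upstream in control cells, 959 kb upstream after ICM and 1690 kb downstream in senescent cells. The distances put MEOX2 in a stretch that both antibodies left without listed peaks.

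PRRX1, a paired-type homeobox gene of fibroblasts and limb mesenchyme (chr1:170662768-170739421, plus strand), had an SMC1 peak inside the gene in 2 lists. In control cells it lay at chr1:170664400-170665449, 1050 bp wide, at percentiles 56.4 by total and 30.0 by highest signal. After ICM it lay at chr1:170664270-170665173, 904 bp wide, at percentiles 42.9 and 10.9. The summits were 2221 and 1750 bp from the outermost 5′ end, too far for a promoter peak by the rule used, but 858 and 387 bp from the transcript start of the promoter sequence printed above. In senescent cells the nearest SMC1 peak was 130 kb away (129988 bp). The nearest CTCF peak was 745 kb away in control and ICM-treated cells and 574 kb away in senescent cells.

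TCF21, a basic helix-loop-helix factor of interstitial fibroblasts (chr6:133889113-133895537, plus strand), had an SMC1 promoter peak of nearly the same width in every list. It spanned 1369 bp in control cells (chr6:133888759-133890127), 1369 bp after ICM (chr6:133888835-133890203) and 1370 bp in senescent cells (chr6:133888779-133890148). By total signal these stood at percentiles 72.3, 57.4 and 54.8. By highest signal they stood at 44.6, 3.46 and 5.36, so the promoter was listed in all 3 conditions and lower in rank in both others than in control cells. All 300 bases of the TCF21 promoter printed above were covered in each list. TARID, an antisense noncoding gene, begins within 1 kb of each summit.

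TCF21 was the 1 gene that had CTCF peaks in its window in some lists and not in others. CTCF peaks stood 27.6 to 27.7 kb and 35.0 to 35.1 kb downstream of the 5′ end after ICM and in senescent cells. The higher by total signal was chr6:133916322-133917265 after ICM (percentile 11.3) and chr6:133923684-133924564 in senescent cells (percentile 31.8), so both lay in the lower part of their lists. By highest signal the 4 peaks ranged from percentile 43.8 to 63.9. In control cells the nearest CTCF peak was 55.7 kb from the gene, outside the window. The lowest total signal admitted to the control list was 14246, against 20161 after ICM and 6267 in senescent cells. An SMC1 peak stood at the 35.0 kb position in all 3 lists, control included, and at the nearer position after ICM alone.

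TWIST1, a basic helix-loop-helix factor of mesenchyme and of cell migration (chr7:19113047-19117636, minus strand), had 1 peak over the 6 lists together. It was an SMC1 promoter peak in control cells (chr7:19117158-19118618), 1461 bp wide, with its summit 33 bp upstream of the 5′ end, at percentiles 47.4 by total and 20.5 by highest signal. The nearest SMC1 peak was 287 kb upstream after ICM and 1212 kb upstream in senescent cells. The nearest CTCF peak was 2309 kb upstream in control and ICM-treated cells and 591 kb upstream in senescent cells.

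TWIST2, its close paralog in skin and other mesenchyme (chr2:238848085-238910534, plus strand), had an SMC1 promoter peak in control cells (chr2:238847512-238848870, 1359 bp, percentiles 45.8 and 15.8). After ICM the promoter peak lay at chr2:238848291-238849441, 1151 bp wide, with its summit 452 bp inside the gene and percentiles of 27.4 by total and 0.359 by highest signal. It was not listed in senescent cells. The noncoding gene LOC100287387 begins within 1 kb of both summits. Within the gene, 16.3 to 16.4 kb from the 5′ end, an SMC1 peak without a CTCF peak was held by all 3 lists. It lay at chr2:238863956-238865088 in control cells (percentile 66.8 by total signal), chr2:238864112-238864915 after ICM (69.1) and chr2:238864316-238865200 in senescent cells (62.0). This inner peak had the highest total of the window in each list and stayed between percentiles 62.0 and 69.1. The nearest CTCF peak was 584 kb upstream in control cells and 58.6 and 59.1 kb downstream after ICM and in senescent cells.

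SNAI2, which encodes the zinc finger repressor SLUG (chr8:48917598-48921429, minus strand), was the 1 gene with promoter peaks of both antibodies in all 3 lists. Its senescent CTCF promoter peak was lost, leaving 0 genes with one, when the lists were limited to equal length by total or by highest signal or to their upper part. The SMC1 peak covered 2647 bp in control cells (chr8:48919739-48922385), at percentiles 96.7 by total and 87.5 by highest signal. It covered 1094 bp after ICM (chr8:48921146-48922239, percentiles 90.5 and 80.3) and 1135 bp in senescent cells (chr8:48921146-48922280, percentiles 94.3 and 92.9). SNAI2 thus had its widest peak in control cells, as TBX2 did, but a high rank in all 3 lists, and its highest signal stood higher in the senescent list than in the control list. Where the control peak extended into the gene, the other lists gave a separate peak, at chr8:48920079-48920898 after ICM (percentile 29.9) and chr8:48919684-48920720 in senescent cells (percentile 67.7).

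The CTCF promoter peak of SNAI2 ranked in another order than its SMC1 peak. It measured 1120 bp in control cells (chr8:48921266-48922385), at percentiles 54.2 by total and 48.5 by highest signal. After ICM it measured 1372 bp (chr8:48921211-48922582, percentiles 55.5 and 50.2), and in senescent cells 925 bp (chr8:48921351-48922275, percentiles 12.7 and 9.93). Control and ICM were close to each other and the senescent peak was low in its list, although that list was the longest of the 3. Senescent cells also had a CTCF peak 4.30 kb upstream (chr8:48925352-48926373, percentile 19.1), where SMC1 peaks stood in all 3 lists. The other SMC1 peak present in every list lay 18.4 to 18.5 kb from the 5′ end, past the gene, at percentiles 84.0, 94.5 and 88.2, and after ICM (chr8:48902724-48903224) it was the highest of the window.

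Nearly all SMC1 promoter peaks of these genes ranked lower in the other lists than in the control list, which both comparisons share. Between control and ICM, all 5 genes with a promoter peak in both lists had lower percentiles by total and by highest signal, and 4 had a narrower peak. Their median change was -14.9 percentile points by total and -33.0 by highest signal, and the median ratio of widths was 0.643. Over the 4844 protein-coding genes with such a pair the medians were -1.21 and -4.60 points and a ratio of 0.883, with 55.2% lower by total signal and 67.3% narrower. These genes were not matched to the members by rank in control cells. There the promoter peaks of 6 members had a median percentile of 84.5 by total signal, against 61.5 over all genes with one. Between control and senescent cells the 4 genes in both lists all stood lower by total signal, 3 lower by highest signal and 3 narrower, and SNAI2 was the exception by highest signal and TCF21 by width. Their medians were -20.8 and -48.3 points and a ratio of 0.492, against -5.20 and -5.44 points and a ratio of 1.02 over 3874 genes, of which 63.0% stood lower by total signal and 47.5% were narrower. With 4 or 5 genes and 1 library per condition, these medians describe the peaks and were not tested. Each gene was given 1 promoter peak per list. The wide control peaks of TBX2, FOXF1 and SNAI2 each overlapped more than 1 SMC1 peak in both other lists. For TBX2 and SNAI2 the width and total signal in the other lists are therefore those of 1 part of the stretch. At FOXF1 the further peaks only met the edge of the control peak and lay mostly outside it.

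**Figure D3:**
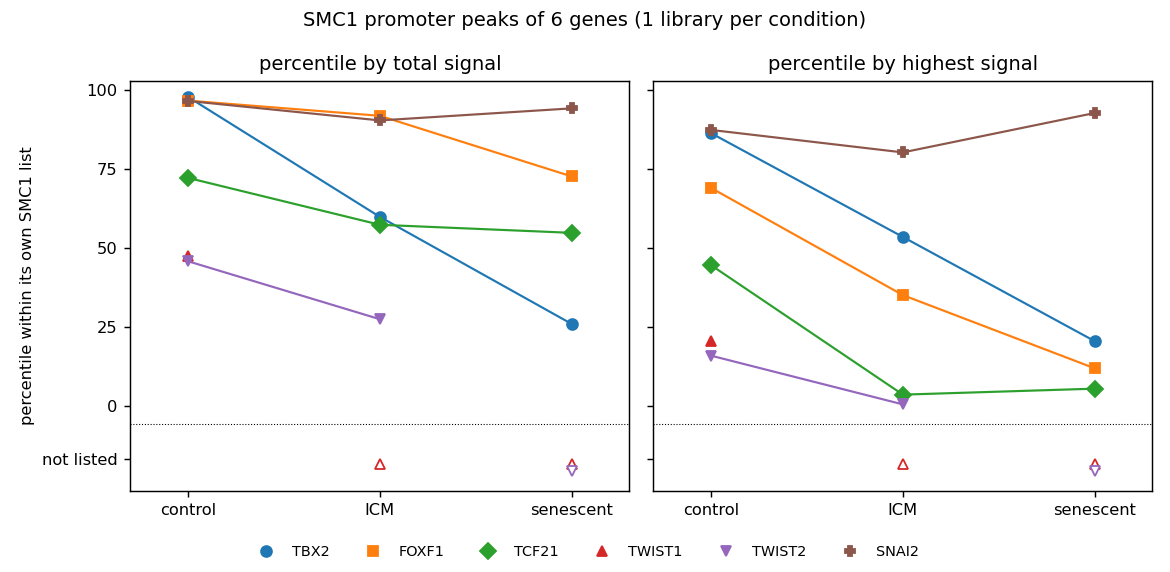
Percentile of the SMC1 promoter peak of 6 genes within its own list, by total signal (left) and highest signal (right), for control, ICM and senescent cells with 1 library each. Lines join peaks of a gene, and open symbols mark lists without a promoter peak; TBX2 stands at 98.0 in control and 25.9 in senescent cells by total signal while SNAI2 stands at or above 90.5.

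SMC1 peaks of at least 2 kb numbered 6 of 23 in the windows in control cells, 0 of 29 after ICM and 1 of 20 in senescent cells. In the whole lists 2.85%, 0.983% and 3.45% of the SMC1 peaks were that wide. Control peaks of this width lay at the promoters of TBX2, FOXF1 and SNAI2, at the CTCF peaks 3′ of TBX2 and FOXF1, and upstream of TBX2. The promoter peaks over all genes had median widths of 1015 bp in control, 879 bp after ICM and 1103 bp in senescent cells, so the senescent list was not narrower in general.

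**Figure D4:**
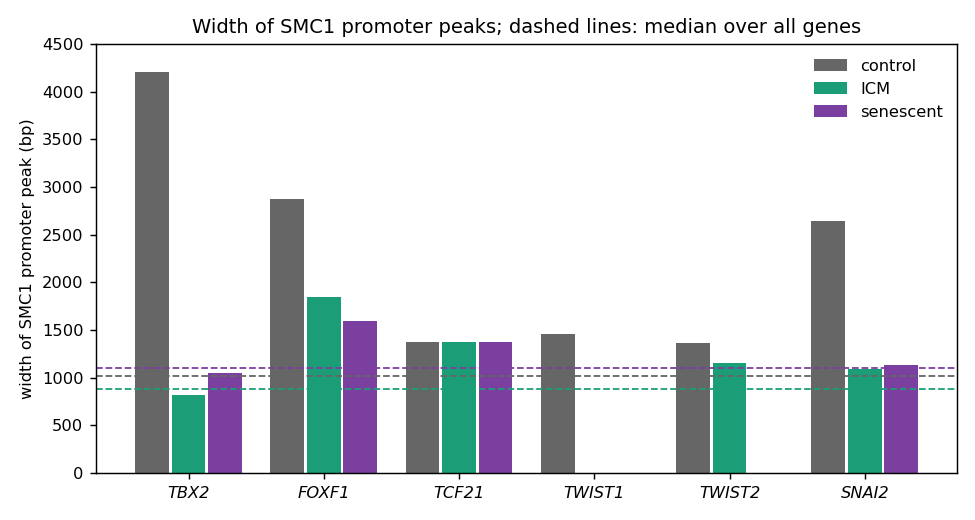
Width in bp of the SMC1 promoter peak of 6 genes in control, ICM-treated and senescent cells (bars, 1 library each, no bar where no promoter peak was listed). Dashed lines give the median width over the promoter peaks of all protein-coding genes; the TBX2, FOXF1 and SNAI2 control bars (4203, 2874 and 2647 bp) rise far above the lines, and the TCF21 bars are level.

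Positions were compared between conditions by joining peaks whose 100 bp summit windows overlapped into loci. CTCF peaks near the 10 genes formed 13 loci, of which 2 were held by all 3 lists (15.4%, against 26.8% of 11380 CTCF loci in all). These 2 were the peaks 17.2 kb from the TBX2 5′ end and 53.4 to 53.5 kb from the FOXF1 5′ end. A further 5 loci were shared by ICM-treated and senescent cells, 1 by control and ICM-treated cells, and none by control and senescent cells alone. These are 38.5%, 7.69% and 0% of the 13 loci, against 13.1%, 5.10% and 3.71% of all CTCF loci. The 5 loci lay at TBX2 (upstream and at LINC02875), 3′ of FOXF1 and at both sites near TCF21. At LINC02875 and 3′ of FOXF1 a whole control peak overlapped the locus and only its summit lay elsewhere. With whole peaks joined, CTCF loci numbered 10, of which 5 were held by all 3 lists.

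SMC1 peaks formed 48 loci, with 9 held by all 3 lists (18.8%, against 20.2% of 27636 in all). The 9 comprised 2 past TBX2, 3 around FOXF1, 1 past TCF21, 1 inside TWIST2 and 2 beside SNAI2, and none was at a promoter of these genes. The control list alone held 9 loci, the ICM list 15 and the senescent list 9. These are 18.8%, 31.2% and 18.8% of the 48 loci, against 14.5%, 23.2% and 17.4% of all SMC1 loci. Of those 33 peaks 26 overlapped a whole peak of another list, so much of the difference lay in where the summit fell within a broad peak. At the TBX2 promoter, for example, the peaks of all 3 lists overlapped while the senescent summit stood apart.

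CTCF peaks near the genes met an SMC1 summit of the same condition in 4 of 5 cases in control cells (80%, exact 95% interval 28.4 to 99.5%), 5 of 9 after ICM (55.6%, 21.2 to 86.3%) and 4 of 9 in senescent cells (44.4%, 13.7 to 78.8%). The intervals cover counting error only, and they overlap. In control cells the CTCF and SMC1 libraries had different p numbers (21 and 16), while in each other condition the 2 libraries had the same. Over the whole lists the shares were 48.9%, 46.6% and 34.8%. By overlap of whole peaks the counts near the genes were 5 of 5, 9 of 9 and 7 of 9, against 75.8%, 72.6% and 50.2% of the lists. The 2 senescent CTCF peaks without SMC1 lay 9.7 kb upstream of TBX2 and 27.7 kb from TCF21.

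Other genes of the same families and pathway gave the setting. Of 7 paralogs, SMC1 peaks lay near 7, 7 and 6 in control, ICM-treated and senescent cells and CTCF peaks near 5, 6 and 6, and TBX3 and MSC had promoter peaks of both antibodies in all lists. Of 11 signalling genes of lung mesenchyme, SMC1 peaks lay near 8 in each list and CTCF peaks near 5, 6 and 6. There GLI1, a hedgehog target, had promoter peaks of both antibodies in all lists, WNT2B had a CTCF promoter peak in all lists, and FGF10 and HHIP had no peak in any. Of 9 transcription factor genes of lung epithelium, SMC1 peaks lay near 3 and CTCF peaks near 2 in each list. ELF3 and FOXA1 had CTCF promoter peaks in all lists, while NKX2-1, FOXA2, SOX2, TP63 and GRHL2 had no peak in any. SMC1 promoter peaks were listed for 6, 5 and 4 of the 10 mesenchymal genes, for 2, 2 and 2 paralogs, for 2, 2 and 1 signalling genes and for 0, 0 and 1 epithelial genes.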

How the data were processed

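CUT&Tag was carried out on IMR90 cells with antibodies against CTCF and SMC1, with 1 library per group. Groups came from the sample titles; titles with p number 34 give no condition, and these libraries were assigned to senescent cells from the series design. Per the study's methods and the submitters' processing notes, the authors aligned reads to hg38 (GRCh38) with Bowtie2 2.3.4.1, used Picard 2.20.7 and deepTools, scaled to carried-over E. coli DNA and called peaks per library with SEACR 1.3, keeping the top 1% of regions. For CTCF the study further considered only peaks with a canonical CTCF motif, and the CTCF counts it reports are slightly lower than those of the deposited lists. Some CTCF peaks given here may thus not be among those the study counted. The deposited lists give each peak's total and highest signal, the authors' own coverage values. They hold no read counts, so depth and precision are unknown, and because the caller keeps a fixed share of regions the length of a list and its cutoff move with the library.

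Here signal served for ranking peaks within a list, and the lowest total admitted to each CTCF list is given once as a description. The 1 mitochondrial peak per list was left out. Gene bodies came from RefSeq on GRCh38, and strand from the RefSeq promoter table or else from GENCODE v44 by symbol and chromosome (19675 of 20037 protein-coding genes; where both had one they gave the same strand for 18986 of 19065). Genes without a strand were left out of promoter counts. Chromosome 17 peaks ended at up to 83206712. The genome sequence at hand was GRCh37, so no peak sequence was read. Summits were joined when their 100 bp windows overlapped by at least 1 bp. All 10 genes are named; a peak is given with coordinates when it is a promoter peak, has the highest total signal of its list and window, or overlaps the gene body at a locus not held by all 3 lists, and genes of the comparison lists are named only when they had a promoter peak of 1 antibody in all 3 lists or no peak in any. The genes and lists were chosen with earlier results of these data known. Alternatives were other windows, promoter and overlap rules, lists of equal length and the upper part of each list. Computation used Python 3.11.15, pandas 2.3.3, numpy 2.4.6 and SciPy 1.17.1, and the scripts were tested on simulated data.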

Additional observations from a re-analysis of the deposited data

Results flagged for a closer look

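The antibodies moved in opposite directions in 4 counts over the 10 genes. Between control and ICM, the number of genes with a CTCF peak in the window changed by 1 (TCF21) and the number with an SMC1 peak changed by -1 (TWIST1), and promoter peaks likewise changed by 1 for CTCF (FOXF1) and by -1 for SMC1 (TWIST1). Between control and senescent cells, the number of genes with a CTCF peak changed by 1 (TCF21) and that with an SMC1 peak changed by -3 (TBX5, PRRX1 and TWIST1), while the peaks in the windows changed by 4 for CTCF and by -3 for SMC1. With 1 library per group this opposite movement was not tested, and it depended on the length of the lists. With lists limited to equal length by total signal, CTCF peaks lay near 4, 4 and 3 genes in control, ICM and senescent cells, so that CTCF did not change after ICM and changed in the same direction as SMC1 (9, 7 and 6 genes) in senescent cells. By highest signal they lay near 4, 5 and 4 genes, and CTCF promoter peaks numbered 1 in control and 1 after ICM. As deposited, the whole CTCF list was longer and the whole SMC1 list shorter in senescent than in control cells. Over all protein-coding genes, 41.7%, 51.7% and 55.7% had a CTCF peak in the window in control, ICM and senescent cells. For SMC1 these shares were 68.3%, 69.0% and 63.1%. Promoter shares in control and ICM were 8.76% and 12.6% for CTCF and 31.6% and 27.6% for SMC1. The background thus moved in the same directions, except for SMC1 peaks in the window after ICM.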

How the results depend on the processing

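Of 139 values under alternatives, 107 stayed within 1.5 times the reported count, or within the interval of the reported share, and 32 did not. With the gene body alone, CTCF peaks were left for 1, 3 and 1 genes in control, ICM and senescent cells and for 1 gene in every list; CTCF loci numbered 4 with 0 in all 3 lists, and SMC1 loci 17 with 1 in all 3 lists. With 25 kb on each side 1 CTCF locus was held by all 3 lists. With whole peaks joined, 5 CTCF and 14 SMC1 loci were held by all 3 lists, SMC1 loci numbered 28, and 100% of CTCF peaks in control and 100% after ICM overlapped an SMC1 peak; with a reciprocal overlap of at least 50%, 5 CTCF loci were held by all 3 lists. With lists cut to equal length by total signal, CTCF peaks lay near 3 genes in senescent cells, 0 genes had a senescent CTCF promoter peak, and CTCF loci numbered 8 with 1 in all 3 lists. By highest signal, CTCF promoter peaks numbered 1 after ICM, 0 in senescent cells and 1 in any list, 1 CTCF locus was in all 3 lists, and SMC1 promoter peaks after ICM numbered 3. In the upper part of each list by total signal, CTCF promoter peaks numbered 1 after ICM, 0 in senescent cells and 1 in any list, senescent CTCF peaks lay near 3 genes, CTCF loci numbered 6 with 1 in all 3 lists, and SMC1 loci 29 with 5 in all 3 lists. The cause was not tested beyond the construction of each setting. No value moved with 100 kb on each side, a window on summits, promoter peaks over the 5′ end or within 2 kb of it, or RefSeq transcript starts, the last chosen after seeing the data, under which 7, 6 and 4 genes had an SMC1 promoter peak, with PRRX1 added in control and ICM. No paired analysis was possible because each group has 1 library.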
